A study of Rattus norvegicus with 36 samples.

Results

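Bdnf (ENSRNOG00000047466), the gene of brain-derived neurotrophic factor, and Ntrk2 (ENSRNOG00000018839), the gene of its receptor TrkB, were followed across 2 brain regions of rats that differed in how they gambled. They are a ligand and its receptor, taken by their Ensembl identifiers and by no measured value, and they are 2 of the 32623 genes counted. BDNF is a secreted neurotrophin that is released by neurons in response to activity and that supports synaptic strengthening and neuronal survival. It binds the receptor tyrosine kinase TrkB, which signals through the MAP kinase, PI3 kinase and phospholipase C gamma routes; shorter TrkB forms that lack the kinase domain are made from the same gene and are abundant in astrocytes. In the striatum little Bdnf RNA is made, and much of the protein there is known to arrive along axons from the cortex, whereas TrkB is made by the receiving cells.

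The animals were Sprague Dawley rats (Sparague Dawley in the labels) trained in the rat gambling task, in which light signals on a touch screen lead to rewards or punishments of differing size and probability. Each rat was named risk-averse or risk-seeking from its settled choices, and RNA was then taken from 2 dissected regions, the prefrontal cortex (PFC; medial in the protocol) and the nucleus accumbens (NAc), which belongs to the ventral striatum. There were 36 libraries from 19 rats, 9 in each of the 4 groups formed by region and preference, and 17 rats (9 risk-averse, 8 risk-seeking) gave both regions. All groups shared strain and training, no drug or genetic change is named, and neither age nor sex is given in the sources used here.

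Counts over genes were 18436025 to 34761269 per library. Among uniquely aligned reads, the share that fell in no annotated gene had a PFC mean of 25.01% for risk-averse and 23.3% for risk-seeking rats. Its NAc mean was 27.6% and 25.7%. Reads with non-unique alignments were left out of the total for this share. Levels are given in CPM, a gene's counts relative to the library's total count on the usual per-million scale, with totals scaled by the trimmed mean of M-values. CPM is not divided by gene length, so the level of Bdnf is not compared with that of Ntrk2. A gene count pools all transcripts, so full-length and truncated TrkB, or Bdnf transcripts from different promoters, could not be told apart. Because identifiers could not be paired with symbols, the labelled tissues were not checked against marker genes.

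Bdnf is transcribed from several alternative promoters, some of which respond to neuronal activity. The gene count sums over all of them, so their start windows were searched for short motifs, and those with a match are shown. RefSeq (GRCr8) lists 6 start windows for rat Bdnf, all on the plus strand of chromosome 3, each running from 250 bases before to 50 bases after a start; the last 2 overlap. The RefSeq gene table holds Ntrk2, with 14 transcripts against 11 for Bdnf, but no start window was matched for it. Both strands were searched for the cAMP response element TGACGTCA, to which the activity-regulated factor CREB binds, and for its shorter core TGACG, which overlaps every full match. The E-box CACGTG, a site of helix-loop-helix factors, was searched too. The full element was in 0 of the 6 Bdnf windows and in 1.83% of all 33469 RefSeq windows of the same length. The shorter core was in 1 of 6, against 21.2% of all windows, and the E-box was in 1 of 6, against 6.42%. The 2 windows with a match follow, with the matched letters in capitals. The first is chr3:116637608-116637907, where the core lies on the minus strand and so reads CGTCA, beginning 35 bases before the start. The second is chr3:116620585-116620884, where the E-box begins 19 bases after the start. A match of letters describes the window and does not show that a factor is bound.
Bdnf window 4, plus strand: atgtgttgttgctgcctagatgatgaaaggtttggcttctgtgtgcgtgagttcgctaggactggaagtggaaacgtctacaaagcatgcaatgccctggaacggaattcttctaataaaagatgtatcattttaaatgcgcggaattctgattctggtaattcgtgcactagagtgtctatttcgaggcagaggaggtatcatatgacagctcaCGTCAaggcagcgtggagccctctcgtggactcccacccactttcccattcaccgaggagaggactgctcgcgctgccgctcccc
Bdnf window 2, plus strand: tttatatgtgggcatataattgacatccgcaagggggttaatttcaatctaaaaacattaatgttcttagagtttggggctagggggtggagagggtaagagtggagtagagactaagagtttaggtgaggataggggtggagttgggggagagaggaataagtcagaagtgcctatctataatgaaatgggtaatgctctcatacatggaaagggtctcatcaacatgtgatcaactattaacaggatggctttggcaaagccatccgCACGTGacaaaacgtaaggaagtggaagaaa

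Bdnf RNA was far higher in PFC than in NAc. In the 18 PFC libraries its level ran from 34.4 CPM (risk-averse rat B3) through a median of 45.9 to 55.6 CPM (risk-seeking rat B9). In the 18 NAc libraries it ran from 0.162 CPM (risk-seeking rat R1) through a median of 1.15 to 2.94 CPM (risk-seeking rat BR5). The regions did not overlap: the lowest PFC library stood far above the highest NAc library. Means were 45.5 ± 6.13 CPM in PFC and 1.33 ± 0.816 CPM in NAc (SD, n = 18 each). These NAc values rest on 5 to 91 counts per library and 657 in all, against 782 to 1881 per PFC library and 21645 in all. In bulk tissue, fewer cells of a type and less RNA per cell cannot be told apart.

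**Figure D1:**
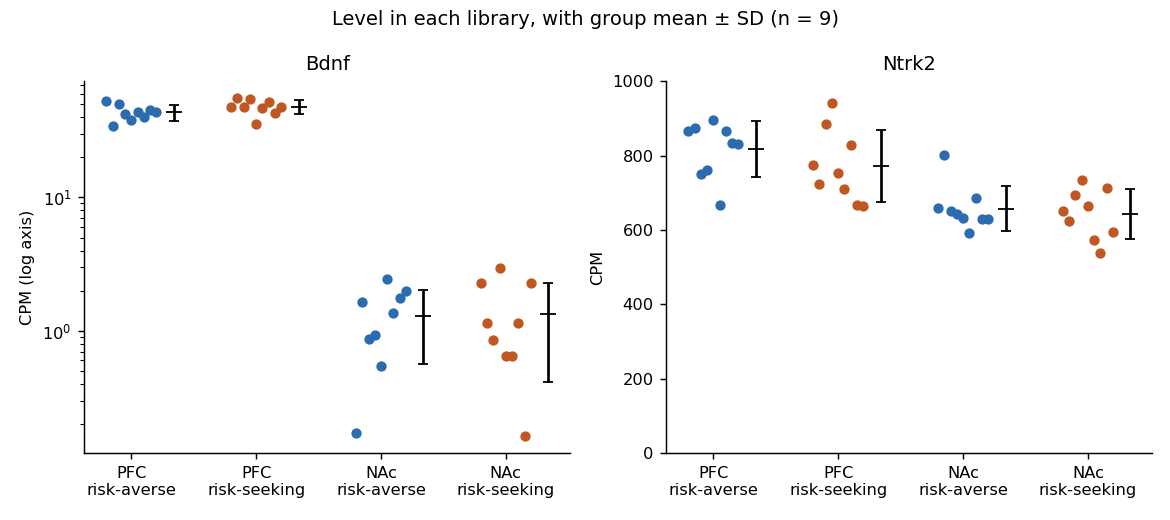
Level of Bdnf (left, log axis) and Ntrk2 (right, linear axis from 0) in CPM for each of the 36 libraries, with the mean and SD of each group of 9 drawn beside the points. Bdnf sits between 34.4 and 55.6 CPM in PFC and between 0.162 and 2.94 CPM in NAc, while the Ntrk2 groups of the 2 regions overlap.

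Between regions, the edgeR quasi-likelihood test called 77.5% of the 15470 genes tested, so that passing the threshold is common in this comparison and the size of a difference says more than its call. Bdnf was 34.8-fold higher in PFC (95% interval 27.1 to 44.8), a log2 fold change of 5.12 ± 0.19 (SE) with an adjusted p of 3.61e-24 in edgeR. It ranked 89 of 15470 genes by the size of the regional difference, with 0.569% of genes above it, where the median absolute log2 fold change was 0.319. With the animal as a replicate block, which compares the 2 regions within each of 17 rats, the log2 fold change was 5.14 ± 0.20 (adjusted p = 4.76e-14, edgeR). The fold was 30.4 without rats B2 and R1, whose NAc libraries held the fewest Bdnf counts, an alternative chosen after their values were seen.

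The gap was then read rat by rat. All 17 rats with both regions had more Bdnf RNA in PFC, by a mean log2 difference of 5.32 ± 1.14 (SD), or 39.9-fold on that scale. The exact sign-change permutation test over the 17 rats gave a two-sided p of 1.53e-05, the smallest it can give. Individual rats ranged from 17.6-fold (risk-averse N7) through a median of 45.2-fold to 318-fold (risk-seeking R1). Rats R1 and B2 (308-fold) stood well apart from the next, N3, at 71.9-fold. Stated the other way, the NAc level was 0.314% to 5.67% of the PFC level of the same rat, with a median of 2.21%.

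**Figure D2:**
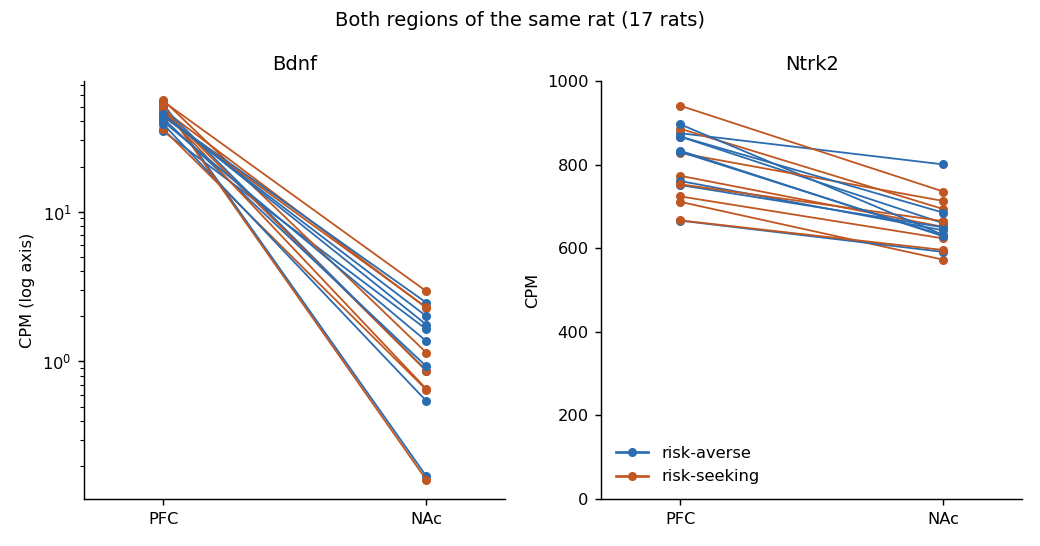
Level in PFC and NAc of the same rat for Bdnf (left, log axis) and Ntrk2 (right, linear axis from 0), in CPM, with 1 line per rat (17 rats) coloured by preference. Every line falls from PFC to NAc for both genes, by 17.6-fold to 318-fold for Bdnf and by 1.09-fold to 1.42-fold for Ntrk2.

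Ntrk2, the receptor gene, was abundant in both regions and moderately higher in PFC. Its level in PFC ran from 664 CPM (risk-seeking R6) through a median of 800.4 to 941 CPM (risk-seeking BR5), and in NAc from 538 CPM (risk-seeking N9) through a median of 646 to 800.4 CPM (risk-averse B3). The regions overlapped across libraries, with means of 794 ± 86.8 CPM in PFC and 650.3 ± 61.5 CPM in NAc (SD, n = 18 each). Each library held at least 14472 Ntrk2 counts, and counting alone would give a coefficient of variation under 1%, where 9.02% to 12.4% was observed within groups. In edgeR the level was 1.22-fold higher in PFC (95% interval 1.14 to 1.303), a log2 fold change of 0.29 ± 0.05 (SE, adjusted p = 1.23e-06). This difference is ordinary among the genes tested, since 53.9% of them differed more between regions.

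Within rats the Ntrk2 difference was small but of 1 direction. It was higher in PFC in 17 of 17 rats, by a mean log2 difference of 0.28 ± 0.11 (SD), with an exact two-sided sign-change permutation p of 1.53e-05, again the smallest possible. The fold ran from 1.09 (risk-averse B3) through a median of 1.19 to 1.42 (risk-averse N6). With the animal as a replicate block the standard error fell to 0.03 around a log2 fold change of 0.28 (adjusted p = 9.39e-10, edgeR). That fit called 12703 of 15488 genes, so passing it is common. The ordering of the 4 groups by mean was therefore PFC risk-averse, PFC risk-seeking, NAc risk-averse and NAc risk-seeking for Ntrk2, with neighbours within a region apart by less than their SDs. For Bdnf it was PFC risk-seeking, PFC risk-averse, NAc risk-seeking and NAc risk-averse, again with neighbours within a region closer than their SDs.

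Neither gene passed the test for a difference between risk-seeking and risk-averse rats in PFC, where edgeR called 23.3% of the 15128 genes tested. Bdnf in risk-averse PFC ran from 34.4 CPM through a median of 43.5 to 52.7 CPM (rat B2), with a mean of 43.2 ± 5.61 (SD, n = 9). In risk-seeking PFC it ran from 35.5 CPM (rat N1) through a median of 47.9 to 55.6 CPM, with a mean of 47.8 ± 6.05 (SD, n = 9). Risk-seeking rats tended to lie at the upper side, 7 of 9 above the risk-averse median, but 7 of 9 also lay within the risk-averse range. The fold was 1.10 (95% interval 0.990 to 1.23), a log2 fold change of 0.14 ± 0.08 (SE) with an adjusted p of 0.202 in edgeR. Of the genes tested, 46.9% differed more than this. With the share of reads in no gene as a covariate the value was 0.19 ± 0.09 (adjusted p = 0.222, edgeR).

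Ntrk2 in PFC leaned the opposite way without passing the test. Risk-averse libraries ran from 666 CPM (rat N7) through a median of 833 to 896 CPM (rat N6), and risk-seeking libraries from 664 through 753 to 941 CPM. The means were 816 ± 75.4 and 772 ± 96.0 CPM (SD, n = 9 each), and 2 of 9 risk-seeking rats exceeded the risk-averse median. The group ranges overlapped almost fully, with all 9 risk-averse libraries inside the risk-seeking range. The fold was 0.943 (95% interval 0.856 to 1.04; adjusted p = 0.413, edgeR).

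In NAc edgeR called 0 of 15418 genes between preferences, a background of 0%, with 2748 genes at an unadjusted p under 0.05; DESeq2 called 566 and limma-voom 0. Neither member was called by any of the 3 tools, though DESeq2 gave Bdnf no adjusted p (unadjusted p = 0.914, DESeq2). Bdnf in risk-averse NAc ran from 0.171 CPM (rat B2) through a median of 1.36 to 2.46 CPM (rat N7), with a mean of 1.304 ± 0.737 (SD, n = 9). In risk-seeking NAc it ran from 0.162 CPM (rat R1) through 1.14 to 2.94 CPM (rat BR5), with a mean of 1.35 ± 0.934 (SD, n = 9). Each group thus had 1 library with very little Bdnf RNA and at least 2 above 2 CPM, and the groups overlapped. The fold of 1.03 had a wide 95% interval of 0.568 to 1.87 (adjusted p = 0.969, edgeR), so folds within that interval could not be told apart at this spread.

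The receptor was better resolved in NAc. Ntrk2 ran from 591 through 643 to 800.4 CPM in risk-averse rats and from 538 through 651 to 735 CPM in risk-seeking rats, with means of 658 ± 59.3 and 643 ± 66.3 CPM (SD, n = 9 each). The groups overlapped, and 5 of 9 risk-seeking rats were above the risk-averse median. The fold was 0.979 (95% interval 0.896 to 1.07; adjusted p = 0.849, edgeR).

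**Figure D3:**
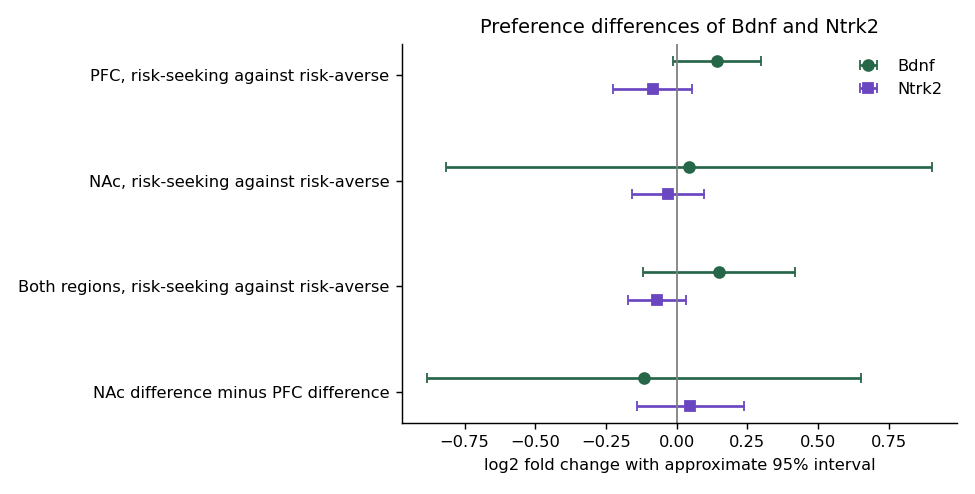
Log2 fold change with its approximate 95% interval for Bdnf (circles) and Ntrk2 (squares), risk-seeking against risk-averse, in PFC, in NAc and over both regions, and the NAc difference minus the PFC difference. All 8 intervals include 0, and those of Bdnf are wide wherever NAc libraries enter.

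The preference difference was not shown to differ between regions for either gene. The interaction (NAc difference minus PFC difference) was -0.12 ± 0.39 on the log2 scale for Bdnf (adjusted p = 0.983) and 0.05 ± 0.10 for Ntrk2 (adjusted p = 0.982) in edgeR. That fit, which does not pair the 2 regions of a rat, called 0 of 15936 genes (0%), with 387 at an unadjusted p under 0.05. DESeq2 and limma-voom also called 0. With the animal as a replicate block, edgeR called 0 of 15985 genes, with 1776 at an unadjusted p under 0.05. Over both regions, limma-voom with the rat as a correlated block called 22.3% of 15936 genes and neither member, with log2 fold changes of 0.15 ± 0.14 for Bdnf (adjusted p = 0.477) and -0.07 ± 0.05 for Ntrk2 (adjusted p = 0.366). The regional gap within rats did not separate the preferences either. It was 5.23 ± 1.15 in 9 risk-averse and 5.42 ± 1.21 in 8 risk-seeking rats for Bdnf (log2, SD; exact permutation p = 0.744, two-sided), and 0.31 ± 0.13 and 0.26 ± 0.08 for Ntrk2 (exact permutation p = 0.297). The Bdnf difference between preferences was 0.19, and 0.42 without the 4 rats of highest share of reads in no gene (exact permutation p = 0.557).

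Bdnf varied much more between rats in NAc than in PFC. Its coefficient of variation was 61.6% over the 18 NAc libraries and 13.5% over the 18 PFC libraries, and the highest NAc library held 18.2 times the CPM of the lowest. Counting error was smaller: within the risk-averse and risk-seeking NAc groups, counting alone would give 17.04% and 16.1%, where 56.6% and 69.3% were observed. The 5 counts of rat R1 gave an exact Poisson 95% interval of 0.0525 to 0.378 CPM, and the 91 counts of rat BR5 one of 2.36 to 3.61 CPM. These intervals, which cover counting error only, do not meet. Ntrk2 varied by 9.45% in NAc and 10.9% in PFC.

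The NAc level of Bdnf moved with that of other genes typical of PFC. After the values were seen, the 28 genes at least 16-fold higher in PFC with a mean PFC level of at least 10 CPM were summed in each library, Bdnf left out. Their sum was 1573 to 1947 CPM in PFC and 24.4 to 106 CPM in NAc, with a NAc median of 52.4 CPM. The 2 lowest NAc sums were 24.4 CPM in rat R1 and 27.1 CPM in rat B2, the same 2 libraries that held the least Bdnf. Rats N7 and R2, with the highest sums of 105 and 106 CPM, held 2.46 and 2.29 CPM of Bdnf.

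Over the 18 NAc libraries, with preference means removed, log2 Bdnf and the log2 sum correlated at r = 0.939 (rho = 0.932; permutation p = 1e-05 for each, the smallest that 100000 resamples can give; 0.00012 adjusted over 12 relations). Without R1 and R2, the libraries farthest from the median sum, r was 0.927, and without B2 and R1 it was 0.889. Within preferences r was 0.910 in 9 risk-averse rats (exact permutation p = 0.000551) and 0.963 in 9 risk-seeking rats (exact permutation p = 0.000152). As a share of the same rat's PFC level, the sum ranged from 1.36% (R1) to 5.76% (R2). The choice of genes at least 16-fold higher in PFC itself keeps these shares low, so their upper end is no result. The Bdnf share lay below that of the sum in every rat with both regions except BR5, R4 and R9. It was 0.314% in R1 and 0.324% in B2, where the sum's was 1.36% and 1.58%. Whether NAc samples held some cortical tissue was not tested. Bdnf RNA from such tissue and from NAc cells cannot be told apart, which bears on the NAc levels, the regional fold and the NAc shares given above. With the sum as a covariate, the preference difference of Bdnf in NAc was 0.21 ± 0.20 on the log2 scale (adjusted p = 0.609, edgeR), and its standard error was 0.44 without it.

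**Figure D4:**
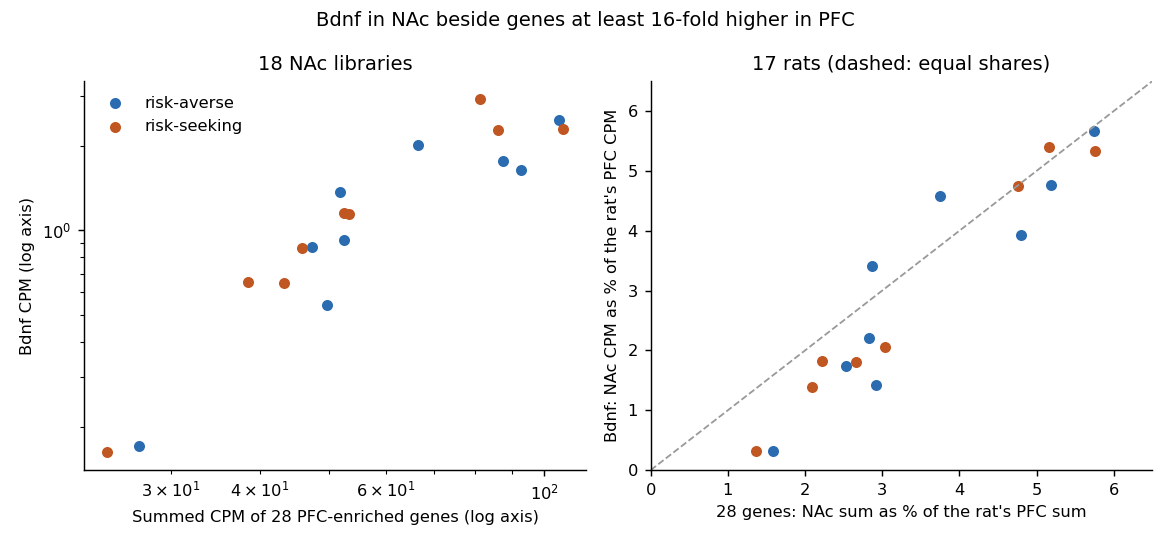
Left, Bdnf in CPM against the summed CPM of 28 genes at least 16-fold higher in PFC, for the 18 NAc libraries (both axes log). Right, for 17 rats, the NAc level as a percentage of the same rat's PFC level for Bdnf and for the sum, with a dashed line of equal shares; rats R1 and B2 lie lowest in both panels.

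Ntrk2 in NAc showed no such relation to that sum (r = -0.0561, permutation p = 0.826, adjusted over the 12 relations 0.826). In PFC, however, Ntrk2 was lower where the sum was higher, at r = -0.683 and rho = -0.717 over 18 libraries (permutation p = 0.00131 and 0.00119; 0.00786 and 0.00714 adjusted). Leaving out rats BR5 and N1 gave r = -0.675, and within preferences r was -0.662 in risk-averse (n = 9, exact permutation p = 0.0514) and -0.706 in risk-seeking rats (n = 9, exact permutation p = 0.0269). Bdnf in PFC had r = -0.452 with the sum (permutation p = 0.0623, adjusted 0.187), and r was -0.0698 without BR5 and N1. It was 0.0888 in risk-averse (n = 9, exact permutation p = 0.819) and -0.762 in risk-seeking rats (n = 9, exact permutation p = 0.0312). Sequencing depth gave no adjusted p under 0.05 with either gene in either region. For Ntrk2 in NAc and depth, r was -0.382 over all 18 libraries and -0.0254 without B3 and N7, -0.786 in risk-averse (n = 9, exact permutation p = 0.0054) and 0.0633 in risk-seeking rats (n = 9, exact permutation p = 0.870). The share of reads in no gene rose with Ntrk2 in NAc by rank (rho = 0.606, adjusted permutation p = 0.0356) but not by r (0.458, adjusted permutation p = 0.187). Within preferences r was 0.403 in risk-averse (n = 9, exact permutation p = 0.257) and 0.782 in risk-seeking rats (n = 9, exact permutation p = 0.00912). The p-values within preferences are not adjusted, and the differences between preferences were not tested.

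Rats with more Ntrk2 RNA in PFC also had more in NAc. Over 17 rats, with preference means removed, the log2 levels correlated at r = 0.725 and rho = 0.762 (permutation p = 0.00085 and 0.00056; 0.0051 and 0.00336 adjusted over the 6 relations tested among the members). Rat BR5 had the highest PFC level (941 CPM) and a high NAc level (735 CPM), and rat N7 was low in both (666 and 591 CPM). Without rats N7 and R2, the farthest from the PFC median, r was 0.642 (permutation p = 0.00928). Its adjusted permutation p was 0.0557, so the threshold was no longer passed. Without the 4 rats of highest share of reads in no gene, r was 0.816 (adjusted permutation p = 0.00486). Within preferences r was 0.534 in 9 risk-averse rats (exact permutation p = 0.138) and 0.905 in 8 risk-seeking rats (exact permutation p = 0.0026). The difference between them was not tested. Paired libraries also correlated over genes with a mean of at least 1 CPM, at 0.129 to 0.55. How many genes follow the rat as closely as Ntrk2 was not determined.

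No such relation was detected for the ligand. Bdnf in PFC and Bdnf in NAc correlated at r = -0.156 and rho = -0.00245 over 17 rats (adjusted permutation p = 0.792 and 0.996), and at r = 0.276 without rats B2 and R1. No relation of ligand and receptor was detected within a region, at r = 0.0668 in PFC and -0.0780 in NAc. Nor was one detected for PFC Bdnf with NAc Ntrk2 (r = -0.140), the pairing of cortical ligand and accumbal receptor, or PFC Ntrk2 with NAc Bdnf (r = -0.184). The adjusted permutation p of each of these 4 relations was 0.792. Within preferences their smallest exact permutation p was 0.154, for PFC Bdnf with NAc Ntrk2 in 9 risk-averse rats (r = -0.526). In 8 risk-seeking rats that r was 0.246, and the difference between preferences was not tested.

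**Figure D5:**
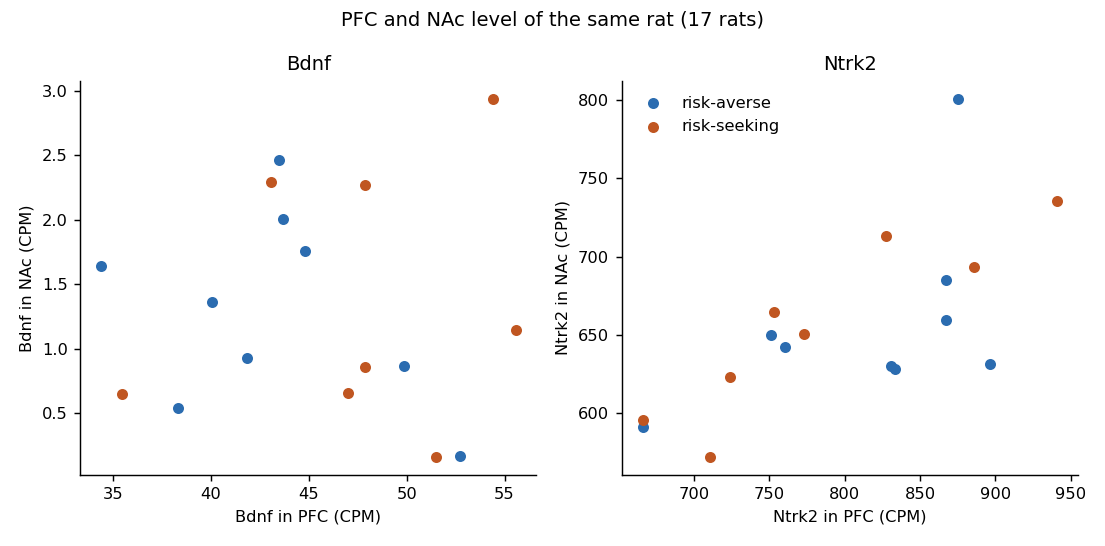
PFC level (x axis) against NAc level (y axis) of the same rat, both in CPM, for Bdnf (left) and Ntrk2 (right) in 17 rats coloured by preference. Ntrk2 levels rise together across rats (r = 0.725 on the log2 scale with preference means removed), while the Bdnf points show no trend (r = -0.156).

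The genes whose pattern was most like each member were found by Pearson's r of log2 CPM over the 36 libraries with the 4 group means removed, among 13994 genes with a mean of at least 1 CPM. For Bdnf these were ENSRNOG00000019321 (r = 0.953) and ENSRNOG00000021513 (r = 0.940). Both were also far higher in PFC, at mean levels of 706 against 44.8 CPM and 67.0 against 2.98 CPM in NAc. In NAc alone both were among the closest (r = 0.971 each, 18 libraries). In PFC alone other genes were closest to Bdnf, at r = 0.825 and 0.812 (18 libraries). Over all 36 libraries, the lowest r with Bdnf were those of ENSRNOG00000019592 (-0.634) and ENSRNOG00000028064 (-0.623). These were lower in PFC (3.86 and 0.725 CPM) than in NAc (8.69 and 7.54 CPM). For Ntrk2 the closest were ENSRNOG00000037871 (r = 0.915) and ENSRNOG00000018231 (r = 0.896), both lower in PFC (248 and 61.3 CPM) than in NAc (319 and 79.8 CPM). The most opposed were ENSRNOG00000043210 (r = -0.803) and ENSRNOG00000055471 (r = -0.798), both higher in PFC. Within groups, Bdnf and Ntrk2 themselves correlated at -0.0417. These are descriptions over libraries that share depth and rats, and the genes are given by identifier because no symbol was matched.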

How the data were processed

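The 36 libraries come from PFC and NAc of 19 rats. TruSeq RNA libraries were made from total RNA and read as pairs, per the labels' protocols. The authors deposited whole-number counts for 32623 Ensembl identifiers, not normalised. The submitters' processing notes list Rnor_6.0 and rn6 as builds and, as tools, HTSeq 0.9.0, edgeR, Trimmomatic and STAR 2.5.3a. No strand setting or annotation release is given in the sources, so a gene's reads cannot be told from those of an antisense or overlapping gene. The 5 HTSeq summary categories were kept out of library sizes.

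Counts of genes that passed filterByExpr were tested by edgeR 4.0.16 in R 4.3.3 (TMM scaling, then glmQLFit with robust=TRUE and glmQLFTest), with Benjamini-Hochberg adjustment over all genes tested and a threshold of 0.05. A standard error is the size of the log2 fold change divided by the root of its F statistic, and intervals are 1.96 standard errors either way. Preference was tested within each region, region over all libraries with preference as a covariate, and preference over both regions with limma 3.58.1 (voom, duplicateCorrelation over rats, consensus correlation 0.395). Log2 CPM used a prior count of 2. Correlations used 100000 resamples, sign-change tests all 131072 sign patterns, and within-rat preference tests all 24310 relabellings. All tests are two-sided. Alternatives included DESeq2 1.42.0. The edgeR fits of preference in each region and of region were checked on simulated data, drawn without pairing by rat. The interaction, the fit over both regions and the fits with the animal as a replicate block were not.

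Sample titles pair the regions of 17 rats, and deviations of paired libraries from group means correlated at 0.129 to 0.55, 16 of 17 NAc libraries correlating best with their own rat's PFC library. Library pairs within groups differed by 6.97 to 44.9 times the sampling noise, so none was a repeat deposit. Both genes were described over region and preference by a rule that uses no measured value, but the members, lists and alternatives were chosen with earlier results of these data known. Named genes are the members and, for each, the 2 identifiers of highest and 2 of lowest r. Of the 32623 identifiers, 0 matched a symbol in the table used here, so the lists of neurotrophin pathway genes and cell type markers were not analysed here.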

Additional observations from a re-analysis of the deposited data

Results flagged for a closer look

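In risk-averse NAc the Ntrk2 level of rat B3 was 800.4 CPM, while the other 8 libraries of that group lay between 591 and 685 CPM. The gap to the nearest library was 0.552 of the group's range, above the limit used for 9 samples. Such a gap was looked for in 12 sets of values, in which chance alone would give about 0.6. Rat B3 was also the rat with the smallest regional fold for Ntrk2 (1.09), and its NAc library had the fewest gene counts (18436025).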

How the results depend on the processing

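No alternative in edgeR, DESeq2 or limma changed a call of Bdnf or Ntrk2: 222 values kept direction and call, and 20 uncalled values changed sign. Bdnf in NAc by DESeq2, which had no adjusted p, was taken as uncalled there. The regional log2 fold change ran from 4.93 to 5.46 for Bdnf and from 0.25 to 0.30 for Ntrk2. With the animal as a replicate block the interaction was -0.11 for Bdnf and 0.06 for Ntrk2 (adjusted p = 0.952 and 0.705, edgeR), and the block changed no call of either gene. The preference difference of Ntrk2 in PFC was 0.027 with the share of non-unique alignments as a covariate. That of Bdnf in PFC ran from 0.099 (without B3) to 0.19 (without N1, adjusted p = 0.0568, edgeR) leaving out each library. That of Bdnf in NAc was -0.034 by limma-voom, -0.017, -0.61 and -0.20 with the unassigned, ambiguous and non-unique shares as covariates, -0.12 without the 4 rats of highest unassigned share, and -0.20 to 0.23 leaving out each library. That of Ntrk2 in NAc was 0.035 and 0.014 with the unassigned and non-unique shares, 0.011 without those 4 rats, and -0.056 to 0.0087 leaving out each library. The interaction of Bdnf ran from -0.34 (without BR5) to 0.10 (without N7) leaving out each rat, and that of Ntrk2 from 0.024 (without R6) to 0.078 (without N9), none of them called.

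The number of genes called in PFC was 334, 0 and 1 with the unassigned, ambiguous and non-unique shares as covariates, 1 without the 4 rats, and 2264 (without B3) to 4227 leaving out each library; in NAc it was 566 by DESeq2 and 0 to 944 (without R9) leaving out each library. Over both regions it was 1486 with the unassigned share and 7 without the 4 rats. Among correlations, Bdnf between regions gave 0.124 and PFC Bdnf with NAc Ntrk2 0.177 without the 4 rats. Without the 2 rats farthest in x, Ntrk2 between regions gave 0.642, PFC Bdnf with NAc Ntrk2 0.338, PFC Ntrk2 with NAc Bdnf 0.0983 and both genes in NAc 0.157; both genes in PFC gave -0.0428 without centring on preference. The cause of these changes was not tested. Bdnf counts in NAc were few, at 5 each in the libraries of rats B2 and R1, and its spread there exceeded counting error. Those 2 libraries were not the shallowest, at 26731249 and 29114983 counts over genes.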
